A study of Mus musculus with 7 samples.

Results

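The genes described here were well expressed in every Setd1b WT oocyte and much lower in every Setd1b cKO oocyte. They were chosen from the values themselves: a transcript had to lie on the strand of the gene it is named for, reach 8 RPM (reads of the transcript relative to all mapped reads of that library) in all 3 WT libraries, and have a lowest WT level over 2 times its highest cKO level. Of 33437 oocyte transcripts, 5840 passed the first 2 conditions and 59 of these (1.01%) the third. After 28 were set aside because they belong to the Pram, Fbxw, Nlrp, Obox or Oosp families, carry placeholder names, or are 1 of 7 genes named in the rule, 31 genes were left. Because the same values chose them, the drop in these 31 genes is described and carries no test.

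The data were RNA-seq libraries of 7 single germinal vesicle (GV) oocytes, the full-sized oocytes held before the first meiotic division, from 21-day-old females, with the strain labelled C57BL6 and named C57BL/6OlaHsd in the study's methods. The labels give both copies of Setd1b as floxed in all 7. In 4 libraries (Setd1b cKO) the female was positive for Gdf9-Cre, a recombinase driven by the promoter of an oocyte growth factor, and in 3 libraries (Setd1b WT) it is labelled negative. The study's methods also count females with Gdf9-Cre and 1 intact copy of Setd1b as WT, and the labels alone set these 3 apart from that. Gdf9-Cre acts from early in oocyte growth, so a cKO oocyte had SETD1B before that stage, and the other cells of the ovary keep it. Which oocytes shared a mother is not stated, so every p-value below measures the spread between these oocytes.

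SETD1B is the enzyme of 1 of the COMPASS complexes, which place methyl groups on lysine 4 of histone H3. Trimethylation at this site (H3K4me3) marks the promoters of active genes. A growing oocyte transcribes a large store of RNA for meiosis and for the first divisions of the embryo and then falls silent at the GV stage, so its RNA reflects both what was made and what was kept.

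By their counts over transcripts, cKO replicate 4 and WT replicate 3 stood apart from the rest of their genotypes. Chi-square per degree of freedom was 39.2 between these libraries, 42.9 to 79.6 between cKO replicate 4 and the other cKO libraries, and 51.0 to 59.6 between WT replicate 3 and the other WT libraries, where other pairs within a genotype had 14.0 to 22.9. Leaving out cKO replicate 4 the rule found 44 genes, and leaving out WT replicate 3 it found 76. Lower calls in the fit described below were then 437 and 311, and higher calls 850 and 577.

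The libraries held 8582493 to 12972367 mapped reads, and 8 RPM corresponded to 68.7 to 104 reads. RPM is a share of the reads of a library and is not divided by the length of a transcript, so levels are compared between oocytes and not between genes, and a change in the total RNA of an oocyte cannot be seen. Reads outside the transcripts made up 13.2% to 16.4% of the cKO libraries and 9.57% to 9.90% of the WT libraries. With levels scaled to the reads within transcripts instead, 27 of the 31 genes still met the rule, and Clec2f, Enox1, Mroh3 and Rnf141 did not. The transcript over the Setd1b gene, which the deposited table lists as Gm26745 and which was assigned here by its span, was at 8.31, 16.7, 12.8 and 2.68 RPM in the cKO and at 17.7, 16.3 and 8.61 RPM in the WT libraries. These values overlap and include sequence outside the floxed segment, so they do not check the labels. Of 16 oocyte markers 15 were in the table, with a summed level of 25970 to 27200 RPM in the cKO and 31551 to 32918 RPM in the WT, and Sohlh1 was at 0. Of the 14 tested 1 was past the threshold given below and lower, Mos, with a median log2 difference of -0.37. Granulosa and theca cell markers, 22 of 24 in the table, summed to 155 to 197 RPM in the cKO and 201 to 233 RPM in the WT. None of the 8 tested passed the threshold, and their median log2 difference was 0.39, opposite in sign to the shift of the sum. Vcan was at 0, and Foxl2 and Amh were at or near 0 in all libraries. Of 16 markers of immune, stromal, endothelial and red blood cells, 13 were in the table, summing to 20.6 to 33.7 RPM in the cKO and 21.1 to 24.8 RPM in the WT, with Lyz2, Cd52, Hbb-bs and Hba-a1 at 0. Cd68 and Dcn, 2 of the 3 tested, were higher in the cKO. The part of these shifts in the results was not tested.

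Across all transcripts, limma on log2(RPM + 1) tested 18179 and called 355 lower (1.95%) and 683 higher (3.76%) in the cKO, where a call needed both a Benjamini-Hochberg adjusted p below 0.05 and a fold difference above 2, the threshold used throughout. Higher calls made up 65.8% of all calls, 46.3% after centring on the median gene and 49.2% after quantile normalisation. Of the 5840 transcripts from which the 31 genes came, 193 were past the threshold and lower (3.30%), 106 were past it and higher (1.82%) and 645 had every cKO value below every WT value (11.0%). In the opposite direction, 61 of the 5801 transcripts at 8 RPM or more in every cKO library (1.05%) had a lowest cKO level over 2 times the highest WT level. All 31 genes were past the threshold, which the way they were chosen largely fixes. With fewer libraries some of these calls were lost, with 24 left without WT replicate 1 and 22 without WT replicate 2.

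The promoters of 4 of the genes are shown first, because active promoters are among the places that carry H3K4me3. In oocytes the mark also covers broad domains outside promoters, as the study describes. CpG content, the density of the dinucleotide CG, varied widely over the 19 of the 31 genes in which it was measured. Each is the stretch of 250 bases before the RefSeq start site (GRCm38.p6, plus strand), with every CpG in capitals. Enox1 (chr14:77156513-77156762) and B4galt4 (chr16:38742009-38742258) are CpG-rich, Rasa4 (chr5:136083666-136083915) is intermediate, and Ceacam10 (chr7:24776917-24777166) is among the poorest.
Enox1: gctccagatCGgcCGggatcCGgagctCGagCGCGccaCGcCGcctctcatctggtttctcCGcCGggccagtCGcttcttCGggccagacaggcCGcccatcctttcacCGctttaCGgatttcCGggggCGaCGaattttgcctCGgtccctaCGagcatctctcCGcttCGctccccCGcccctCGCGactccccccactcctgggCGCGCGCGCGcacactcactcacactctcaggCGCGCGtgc
Rasa4: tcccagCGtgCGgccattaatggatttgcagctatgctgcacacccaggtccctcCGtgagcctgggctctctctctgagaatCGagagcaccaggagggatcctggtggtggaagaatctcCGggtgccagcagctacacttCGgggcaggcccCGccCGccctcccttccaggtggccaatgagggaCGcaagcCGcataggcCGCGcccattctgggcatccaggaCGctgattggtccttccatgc
B4galt4: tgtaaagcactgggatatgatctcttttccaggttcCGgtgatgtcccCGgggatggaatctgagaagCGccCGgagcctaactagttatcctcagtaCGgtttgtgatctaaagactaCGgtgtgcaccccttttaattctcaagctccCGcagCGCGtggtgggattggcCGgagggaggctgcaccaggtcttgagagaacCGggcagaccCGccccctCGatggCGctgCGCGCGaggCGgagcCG
Ceacam10: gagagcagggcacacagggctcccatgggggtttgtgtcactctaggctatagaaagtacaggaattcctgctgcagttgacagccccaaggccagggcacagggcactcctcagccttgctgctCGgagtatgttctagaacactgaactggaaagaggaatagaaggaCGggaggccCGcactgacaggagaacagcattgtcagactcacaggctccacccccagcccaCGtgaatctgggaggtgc
These stretches hold 33 CpG in Enox1, 13 in Rasa4, 19 in B4galt4 and 4 in Ceacam10. The oocyte transcript of Enox1 began exactly at the RefSeq start, and those of Ceacam10, B4galt4 and Rasa4 began 11, 76 and 82 bases from it.

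The cKO mean of the 31 genes was 13.2% to 42.4% of the WT mean, with a median of 28.9%. The fold difference of the means ran from 2.36 for Rnf141 to 7.59 for CT010496.2, with a median of 3.46. None of the genes was without reads in any cKO library, and the fewest were 6 reads, for CT010496.2. On the log2(RPM + 1) scale the differences ran from -2.55 to -1.21 with a median of -1.64, beside a median of 0.00 over the 5840 transcripts and of 0.12 over all tested.

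**Figure D1:**
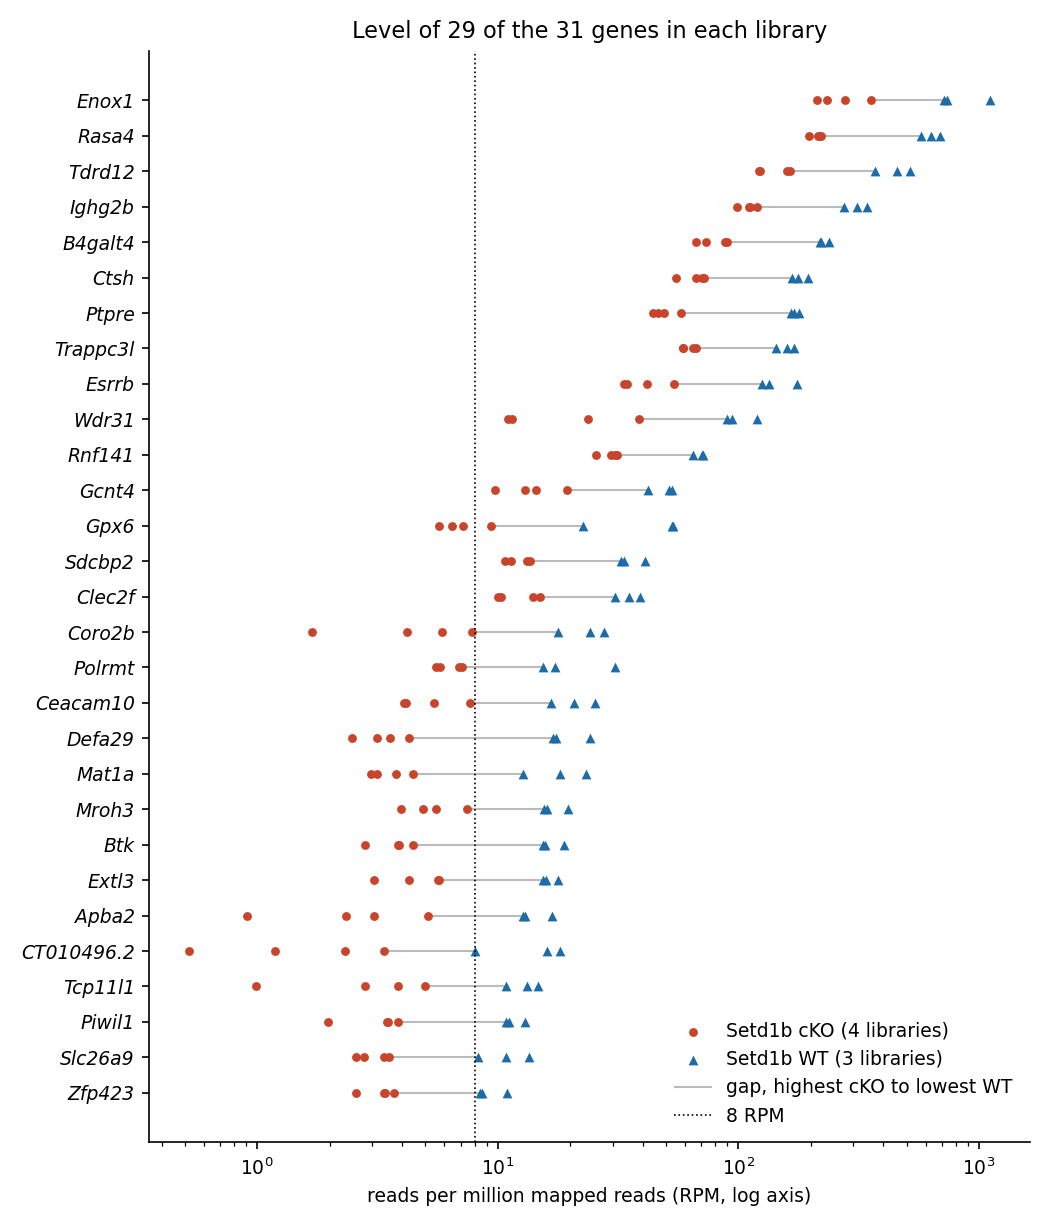
RPM (log axis) of 29 of the 31 genes in each of the 4 Setd1b cKO libraries (circles) and 3 Setd1b WT libraries (triangles), with a grey line from the highest cKO to the lowest WT value and a dotted line at 8 RPM. By the rule every triangle stands over 2 times to the right of every circle, and among those shown the gap is widest for Defa29.

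The gap between the genotypes, the lowest WT level over the highest cKO level, had a median of 2.32. It was 3.97 for Defa29 and 3.46 for Btk. Just inside the threshold were Enox1 (2.01), Clec2f (2.04) and Mroh3 (2.08). Just outside it were Mos (1.99), the kinase that holds the egg in metaphase, Kat14 (1.97), a histone acetyltransferase, and Egfr (1.95), the epidermal growth factor receptor. Kat14 was at 20.3, 26.3, 20.03 and 14.6 RPM in the cKO and 107, 79.2 and 51.8 RPM in the WT, and Egfr at 24.4, 26.8, 19.9 and 13.4 RPM in the cKO and 100.8, 67.1 and 52.3 RPM in the WT. The values of Mos are given with the MAP kinases. By the size of their gap every cKO oocyte was below every WT oocyte in these 3 genes too, as in 645 of the 5840 transcripts (11.0%).

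**Figure D2:**
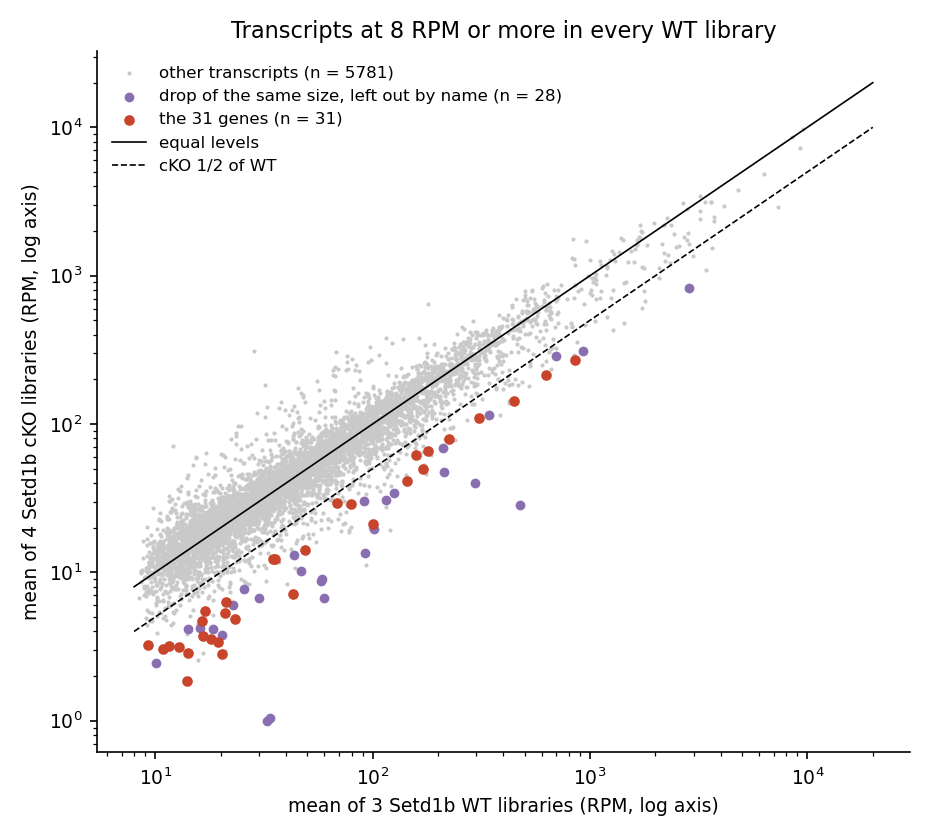
Mean RPM of the 3 Setd1b WT libraries against the mean of the 4 Setd1b cKO libraries (both log axes) for the 5840 transcripts at 8 RPM or more in every WT library. The 31 genes (red) lie below the dashed line at 1/2 of the WT level, at WT means from 9.31 to 854 RPM, together with the 28 left out by name (purple), and most other transcripts (grey) lie about the line of equal levels.

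The genes were spread over the range of WT levels. From the lowest to the highest of 4 bands of WT mean they numbered 6, 13, 8 and 4. With the transcripts left out by name included, 0.824% of the 971 transcripts at 8 to 16 RPM had a drop of this size. The share was 2.06% of the 486 at 256 RPM or more, where 4 of the 10 with such a drop were among the 31 genes, and the shares in between were 0.930% and 0.946%. The median WT mean was 34.9 RPM, and 40.0 RPM over the 5840 transcripts. Variation among WT oocytes, as the coefficient of variation, had a median of 13.1%, against 21.2% over the 5840, and among cKO oocytes 20.7% against 24.1%. Low variation favours meeting a rule on highest and lowest values. The values nearest the other genotype were spread over the oocytes: the lowest WT value of a gene came from WT replicates 1, 2 and 3 in 10, 11 and 10 genes, and the highest cKO value from cKO replicates 1 to 4 in 5, 10, 7 and 9 genes. Over the 5840 transcripts the lowest WT value came from replicates 1 to 3 in 26.8%, 24.7% and 48.5%, and the highest cKO value from replicates 1 to 4 in 14.1%, 37.0%, 19.0% and 30.0%.

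Germline RNA and transcription genes made up 5 of the 31. Tdrd12, a Tudor domain protein needed to make piRNAs (the small RNAs that silence transposons in germ cells), was at 160, 164, 123.2 and 122 RPM in cKO replicates 1 to 4. The WT oocytes, replicates 1 to 3, held 515, 457 and 368 RPM, and the means were 142 ± 22.7 RPM (SD, n = 4) and 446 ± 73.8 RPM (SD, n = 3). Replicates 3 and 4 of the cKO lay below replicates 1 and 2. The lowest WT level over the highest cKO level was 2.24, under the median of 2.32 over the 31 genes. Piwil1, a PIWI protein that carries piRNAs in the male germline, was at 3.46, 1.98, 3.83 and 3.50 RPM in the cKO and 11.1, 10.8 and 12.9 RPM in the WT, a low level in both. Its oocyte transcript began 17146 bases from the GENCODE start of the gene.

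Esrrb, an orphan nuclear receptor known from pluripotent and trophoblast stem cells, was at 41.9, 33.5, 54.2 and 34.5 RPM in the cKO and 134, 125 and 175 RPM in the WT. The cKO mean was 28.4% of the WT mean, and cKO replicate 3 stood above the other cKO oocytes. The transcript (chromosome 12, 86421644 to 86521632, plus strand) began 60527 bases inside the GENCODE gene, at a second start site that RefSeq lists. Polrmt, the RNA polymerase of mitochondria, was at 7.13, 5.52, 5.75 and 6.87 RPM in the cKO and 30.6, 17.3 and 15.4 RPM in the WT, where replicate 1 stood above the others. Zfp423, a zinc finger protein that binds EBF transcription factors, had means of 3.26 ± 0.484 RPM (SD, n = 4) in the cKO and 9.31 ± 1.42 RPM (SD, n = 3) in the WT.

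Signalling and scaffold genes were the largest group, with 7 genes. Rasa4, a GTPase activating protein that switches off RAS in response to calcium, was at 215, 196, 220 and 218 RPM in the cKO and 629, 573 and 686 RPM in the WT. The cKO values differed by less than the WT values did, with means of 212 ± 11.2 RPM (SD, n = 4) and 629 ± 56.8 RPM (SD, n = 3). Ptpre, a receptor type tyrosine phosphatase, was at 46.4, 44.3, 49.2 and 57.9 RPM in the cKO and 179, 165 and 170 RPM in the WT, again with tight groups.

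Btk, on the X chromosome, is a kinase known for relaying the antigen receptor signal in B cells. It was at 4.45, 3.87, 3.83 and 2.80 RPM in the cKO and 18.8, 15.4 and 15.7 RPM in the WT, and its cKO and WT values were far apart. Of the adaptors with PDZ domains, Sdcbp2 (syntenin-2) was at 13.7, 11.4, 10.7 and 13.2 RPM in the cKO and 32.4, 40.9 and 33.5 RPM in the WT. Apba2, which binds the amyloid precursor protein, was at 5.15, 0.906, 3.05 and 2.33 RPM in the cKO and 16.8, 12.7 and 12.9 RPM in the WT, with cKO replicates 1 and 2 farthest apart. Rnf141, a RING finger protein, had the smallest fold difference, with means of 29.3 ± 2.55 RPM (SD, n = 4) in the cKO and 68.9 ± 3.52 RPM (SD, n = 3) in the WT.

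Enzymes that build sugar chains on proteins supplied 3 genes, each from a different kind of chain. B4galt4, which adds galactose to N-acetylglucosamine, was at 88.2, 89.7, 73.7 and 66.4 RPM in the cKO and 218, 220 and 238 RPM in the WT. Gcnt4, which branches mucin type chains, was at 9.70, 14.4, 13.0 and 19.5 RPM in the cKO and 51.3, 53.0 and 42.2 RPM in the WT. Extl3, which starts heparan sulphate chains, was at 3.07, 4.28, 5.66 and 5.71 RPM in the cKO and 15.4, 15.9 and 17.9 RPM in the WT. The fold differences of the 3 enzymes lay between 2.84 and 3.50.

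Redox, metabolic and transport genes numbered 6. Enox1, an NADH oxidase of the cell surface, was at 233, 212, 278 and 356 RPM in the cKO and 716, 738 and 1108 RPM in the WT. It varied within both genotypes and was the gene nearest to the threshold of the rule. Ctsh, a protease of lysosomes, was at 70.7, 71.9, 66.3 and 55.0 RPM in the cKO and 196, 177 and 167 RPM in the WT. Gpx6, a glutathione peroxidase, was at 6.43, 7.17, 9.40 and 5.71 RPM in the cKO and 52.9, 53.6 and 22.5 RPM in the WT. WT replicate 3 held less than 1/2 of the Gpx6 level of the other WT oocytes and was still above every cKO oocyte.

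Mat1a, the liver enzyme that makes S-adenosylmethionine, the methyl donor of methyltransferases, was at 3.76, 2.96, 3.13 and 4.43 RPM in the cKO and 23.2, 18.1 and 12.7 RPM in the WT. Slc26a9, an anion transporter of epithelia, had means of 3.06 ± 0.464 RPM (SD, n = 4) in the cKO and 10.8 ± 2.59 RPM (SD, n = 3) in the WT.

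Trafficking and the cytoskeleton were represented by 2 genes. Trappc3l, a relative of a subunit of the TRAPP complex that tethers transport vesicles, was at 58.7, 66.5, 64.6 and 58.7 RPM in the cKO and 158, 171 and 143 RPM in the WT. Coro2b, a coronin that binds actin, was at 1.68, 7.82, 5.83 and 4.19 RPM in the cKO and 27.6, 17.7 and 24.1 RPM in the WT. The cKO oocytes were alike for Trappc3l and spread widely for Coro2b.

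Names of defence and immune genes were carried by 4 of the 31. Ighg2b, a constant segment of antibody heavy chains, was at 98.5, 111, 111 and 120 RPM in the cKO and 342, 275 and 311 RPM in the WT. Defa29, an antimicrobial defensin of the gut, was at 2.47, 4.28, 3.57 and 3.15 RPM in the cKO and 17.0, 17.5 and 24.1 RPM in the WT. In both, every WT oocyte was over 2 times above every cKO oocyte, but the transcripts carrying these names share little of their span with the genes. The oocyte transcript called Defa29 (chromosome 8, 21325887 to 21624175, minus strand) spans 298289 bases, begins 297155 bases before the gene and shares only the 1134 bases of the gene with it. That called Ighg2b (chromosome 12, 113303172 to 113338166, minus strand) spans 34995 bases against 4969 of the gene.

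Clec2f, a C-type lectin gene that GENCODE classes as a transcribed pseudogene, was at 14.1, 15, 10.3 and 10.02 RPM in the cKO and 30.6, 38.9 and 35.2 RPM in the WT. Ceacam10, a secreted member of the carcinoembryonic antigen family, was at 4.16, 5.44, 7.66 and 4.08 RPM in the cKO and 20.7, 16.7 and 25.4 RPM in the WT. Of these 4 names, Ceacam10 alone fitted its transcript from start to end. Families with near-identical copies share reads, and poorly placed reads had been removed, so the levels of defensin, lectin and CEACAM genes are uncertain.

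The last 4 genes have little known about them. Wdr31, a WD repeat protein, was at 11.5, 23.7, 38.5 and 11.1 RPM in the cKO and 93.9, 119 and 89.5 RPM in the WT, so that cKO replicate 3 kept over 3 times the level of replicates 1 and 4. Mroh3, a HEAT repeat protein, was at 3.96, 5.52, 4.88 and 7.46 RPM in the cKO and 19.6, 15.5 and 16 RPM in the WT. CT010496.2, a long non-coding RNA, was at 1.19, 2.31, 0.522 and 3.38 RPM in the cKO and 8.02, 16 and 18.1 RPM in the WT, the most variable gene in the cKO oocytes. Tcp11l1 had means of 3.15 ± 1.69 RPM (SD, n = 4) in the cKO and 12.9 ± 1.95 RPM (SD, n = 3) in the WT.

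How well the names fit was asked of all 31 by comparing spans. In 25 genes the oocyte transcript and the GENCODE gene shared at least 0.5 of their joint span, and in 20 the transcript began within 500 bases of the annotated start. The other 6 were Defa29, Ighg2b, Coro2b, Clec2f, Tcp11l1 and CT010496.2. The Coro2b transcript began 87897 bases inside the gene. The table holds spans and no exons, so whether the reads fall in the exons of the named gene is not known.

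**Figure D3:**
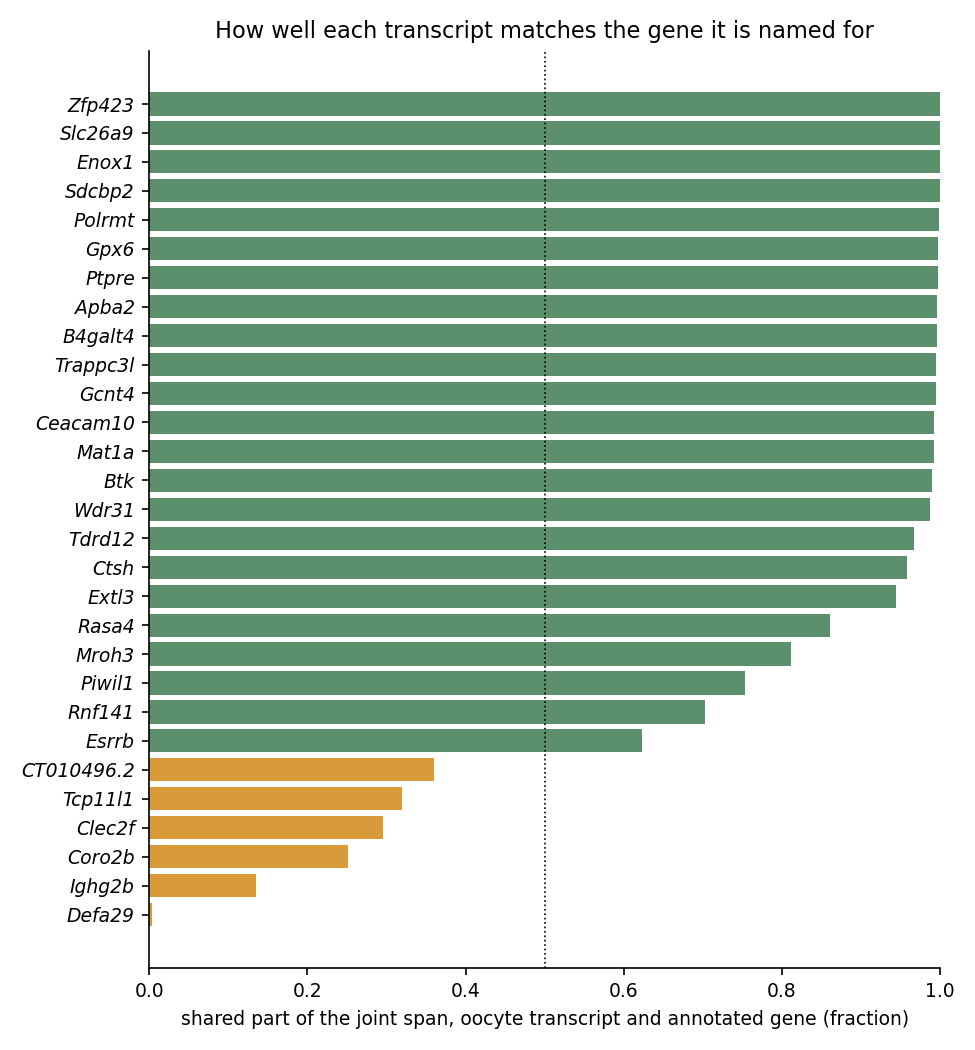
Shared part of the joint span of each oocyte transcript and the GENCODE gene it is named for, as a fraction from 0 to 1, for 29 of the 31 genes. The 23 green bars reach the dotted line at 0.5, and the 6 orange bars do not, with Defa29 at 0.0038.

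The genes were not neighbours. They lay on 15 chromosomes, with 5 on chromosome 7, and the closest pair, Slc26a9 and Mroh3 on chromosome 1, were 4409970 bases apart. Their spans had a median of 31257 bases, against 28557 over the 5840 transcripts, and ran from 7491 for Gpx6 to 564998 for Enox1.

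The transcripts lying next to the 31 genes were read from the same fit. Within 100000 bases of 30 of the genes lay 51 nearest neighbours, of which 2 were past the threshold and lower (3.92%) and 3 higher (5.88%), with a median log2 difference of -0.03. Over all tested the shares were 1.95% and 3.76% and the median 0.12. The 2 lower ones were Pin1rt1, 1452 bases from Tcp11l1, and Defa3, 37510 bases from the transcript called Defa29. Pin1rt1 had means of 57.3 RPM in the cKO and 119 RPM in the WT (log2 fold change -1.05, limma adjusted p = 0.0133), and Defa3 of 0.0247 and 1.36 RPM (-1.19, limma adjusted p = 0.0233), few reads in either.

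Overlapping transcripts were looked at because the use of strand in counting is not stated. In 13 of the genes 14 other transcripts overlapped, all on the opposite strand, and 7 had enough reads to test. The antisense transcript of Gpx6 was at 0.792, 0.741, 1.31 and 0.699 RPM in the cKO and 5.75, 6.32 and 2.62 RPM in the WT (log2 fold change -1.59, SE 0.32, limma adjusted p = 0.0180). It had the same order of WT oocytes as Gpx6, with replicate 3 lowest, and the reads of the pair cannot be told apart. The other 6 did not pass the threshold.

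CpG content was compared over the genes with a RefSeq promoter at the start of their oocyte transcript. RefSeq promoters, 250 bases before to 50 after a start site, were found for 22 of the 31 genes, and for 19 the start lay within 500 bases of the oocyte transcript. The observed over expected CpG ratio had a median of 0.566 in these 19 and of 0.804 in the 3075 transcripts at 8 RPM or more matched in the same way. Ratios under 0.4 were found in 8 of 19 (42.1%), against 317 of 3075 (10.3%). These were Ceacam10 (0.167), Gpx6 (0.169), Btk (0.179), Slc26a9 (0.257), Trappc3l (0.271), Esrrb (0.318), Tdrd12 (0.341) and Sdcbp2 (0.390). At the other end were Enox1 (1.20) and Polrmt (1.04), so CpG-rich promoters were also among the 19.

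The same was measured in 2 wider groups. Among the genes with a drop of this size that were left out by name, 12 had a matching promoter, with a median ratio of 0.354 and 58.3% under 0.4. Of the 295 matched transcripts with every cKO value below every WT value, which include these 19 genes, 30.8% were under 0.4, with a median of 0.658. With genes of a single RefSeq promoter alone, 41.7% of 12 genes were under 0.4, against 9.40% of 2436. These shares are descriptions of a small number of promoters and were not tested.

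**Figure D4:**
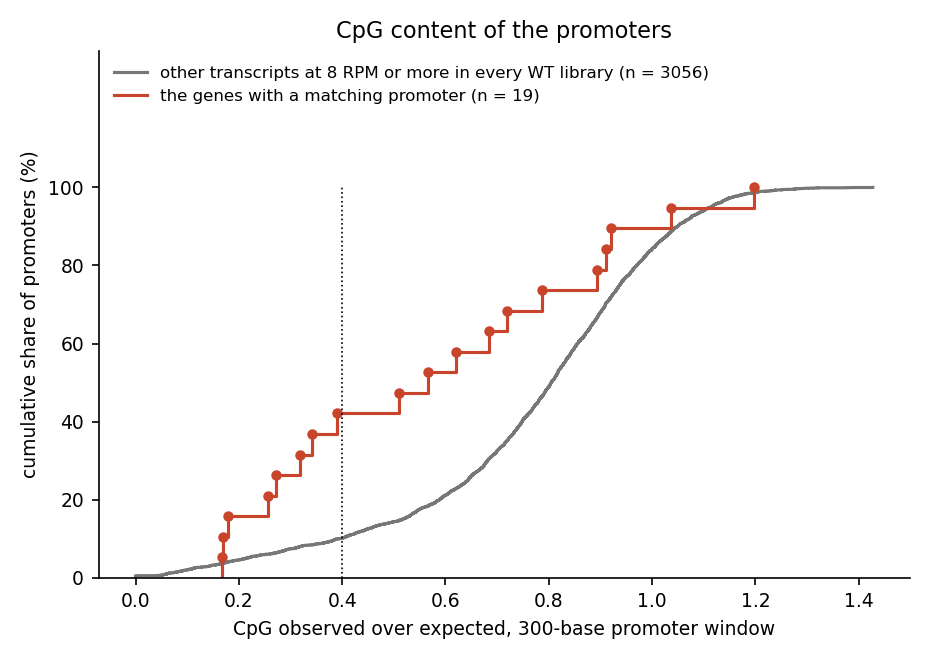
Cumulative share (%) of promoters against the observed over expected CpG ratio of the 300-base RefSeq window, for the 19 matched genes (red steps, a point for each gene) and the 3056 other matched transcripts at 8 RPM or more in every WT library (grey). At the dotted line, a ratio of 0.4, the red curve has reached 42.1% and the grey curve 10.1%.

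Short promoter motifs were counted on both strands of the 300-base windows. The GC box GGGCGG was in 10 of the 19 (52.6%), among them Enox1, Rasa4, B4galt4 and Tdrd12, and in 66.4% of the 3075. CCAAT was in 6 (31.6%) against 42.5%, the E-box CACGTG in 3 (15.8%: Wdr31, Gpx6 and Ceacam10) against 10.7%, and TATAAA in 2 (10.5%: Polrmt and Slc26a9) against 6.99%. TAATTG, the core bound by the oocyte factor NOBOX, was in 1 (Trappc3l, 5.26%) against 5.14%, and AAGGTCA, the site of oestrogen related receptors, in 0 against 2.63%. Over all 32851 RefSeq promoters these shares were 35.7% for GGGCGG, 37.4% for CCAAT, 7.15% for CACGTG, 13.6% for TATAAA, 8% for TAATTG and 4.72% for AAGGTCA. None of the motifs was in more than 10 of the 19 promoters.

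Relatives of the 31 genes were taken next, from 24 families chosen by name after the genes were known, to see whether paralogues and partners moved with them. The table held 105 relatives, of which 77 were tested, and 1 was past the threshold and lower (1.30%) and 2 higher (2.60%), with a median log2 difference of 0.10. These shares lie near those over all tested, 1.95% and 3.76%. The lower one was Ceacam20, a relative of Ceacam10, at 37.3, 41.8, 35.1 and 41.9 RPM in the cKO and 106, 68.1 and 99.2 RPM in the WT. Every cKO oocyte was below every WT oocyte (log2 fold change -1.18, SE 0.22, limma adjusted p = 0.0132), but without WT replicate 1 the adjusted p was 0.0713, the highest over 20 alternatives from 0.00455.

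Ptprd, like Ptpre a receptor type tyrosine phosphatase, moved in the other direction. It was at 30.3, 22.7, 32.9 and 38.2 RPM in the cKO and 13.4, 12.8 and 9.82 RPM in the WT (log2 fold change 1.29, SE 0.25, limma adjusted p = 0.0144). Without WT replicate 2 its adjusted p was 0.0611, the highest over 20 alternatives from 0.00521.

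The piRNA pathway was the largest family, and none of its 12 tested partners of Tdrd12 and Piwil1 passed the threshold. Henmt1, which methylates the ends of piRNAs, was at 14.4, 23.0, 37.4 and 2.68 RPM in the cKO and 93.3, 93.0 and 48.1 RPM in the WT. Every cKO oocyte was below every WT oocyte, but the cKO values spread over a wide range (log2 fold change -2.32, SE 0.65, limma adjusted p = 0.0622). Gtsf1, a zinc finger partner of PIWI proteins, had means of 711 ± 226 RPM (SD, n = 4) and 1255 ± 478 RPM (SD, n = 3; limma adjusted p = 0.157), and Tdrd1 of 103 ± 9.82 and 134 ± 15.5 RPM (limma adjusted p = 0.308).

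Some close relatives of single genes of the 31 had small differences with wide errors. Enox2 had means of 9.71 RPM in the cKO and 9.64 RPM in the WT (log2 fold change -0.07, SE 0.32), beside the 3.17-fold difference of Enox1. Mat2a, the form of the S-adenosylmethionine enzyme used outside the liver, had means of 50.2 and 49.6 RPM (log2 fold change -0.02, SE 0.33). For Enox2 and Mat2a the sign of so small a difference depends on the scale, since the means of RPM were slightly higher in the cKO. Trappc3 had means of 13.1 and 9.03 RPM (log2 fold change 0.48, SE 0.28). Tfam, which partners POLRMT on mitochondrial DNA, had means of 20.9 and 17.7 RPM (log2 fold change 0.06, SE 0.44). None of these 4 passed the threshold, and with such errors a moderate change in either direction could have been missed.

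**Figure D5:**
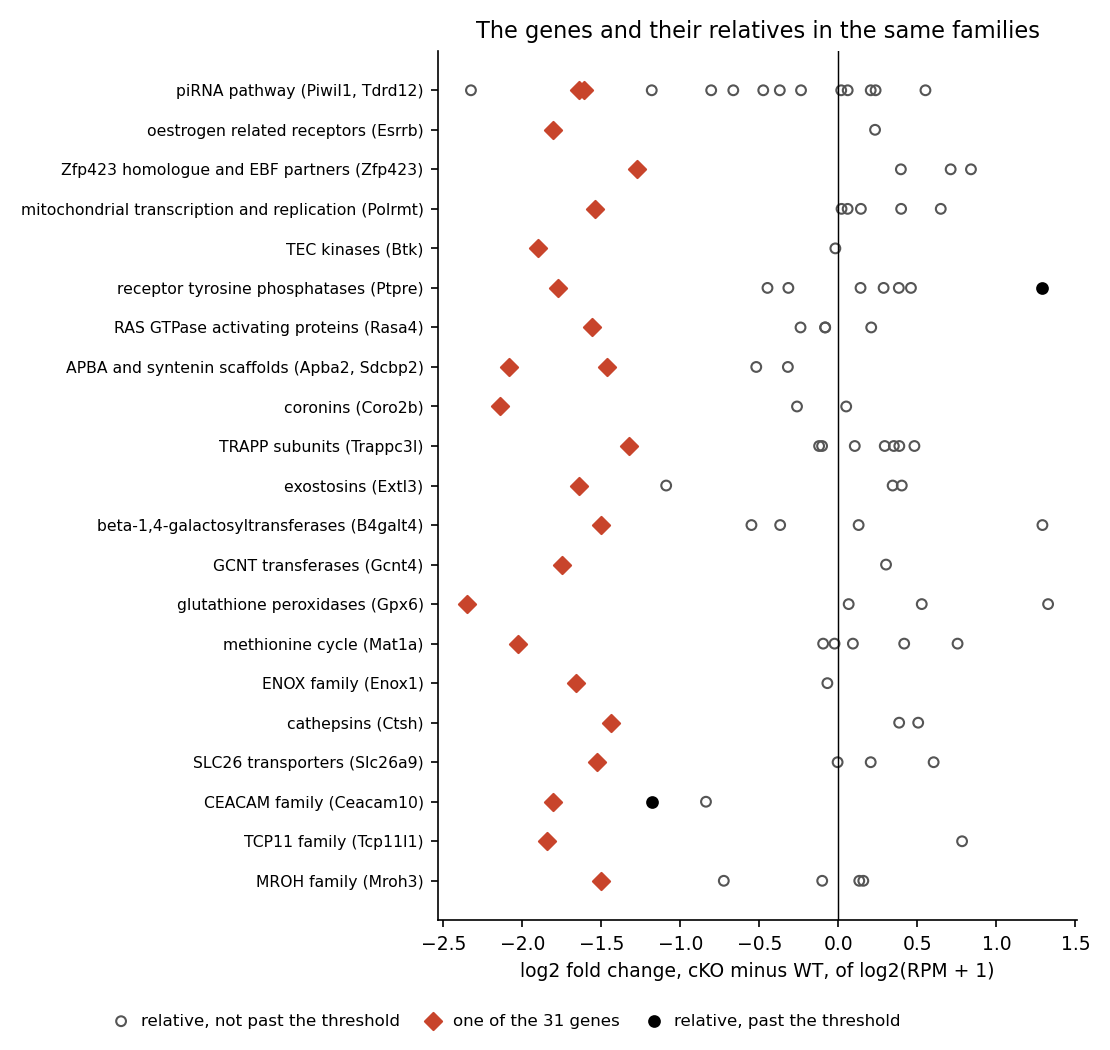
Log2 fold change (cKO minus WT, on the log2(RPM + 1) scale) of the tested relatives in 21 families (open circles, or black where past the threshold) and of the genes among the 31 that they are related to (red diamonds, placed at the left by the way they were chosen). Most relatives lie about 0. The 2 black points are Ceacam20 and Ptprd.

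Beyond the families, 12 lists of pathway genes that hold none of the 31 were read from the same fit. The table held 339 of their genes, of which 284 were tested, 5 were past the threshold and lower (1.76%) and 8 higher (2.82%), with a median log2 difference of 0.08. Over all tested the shares were 1.95% and 3.76%, so the counts below describe single genes and say nothing of a list as a whole. The lists of cAMP signalling, cyclins and their kinases, nucleotide and folate enzymes, phospholipid and sphingolipid enzymes, and DEAD and DEAH box helicases had no gene past the threshold.

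In Wnt signalling 2 of 20 tested were lower and none higher. Lef1, a transcription factor of the pathway, was at 48.9, 31.6, 23.0 and 38.7 RPM in the cKO and 105, 127 and 93.7 RPM in the WT (log2 fold change -1.63, SE 0.27, limma adjusted p = 0.00798). Nkd1, an inhibitor of the pathway, had means of 18.7 ± 5.98 RPM (SD, n = 4) and 78.0 ± 35.7 RPM (SD, n = 3; log2 fold change -1.93, limma adjusted p = 0.0125). Without WT replicate 2 the adjusted p rose to 0.0556 for Lef1 and 0.0710 for Nkd1, the highest over 20 alternatives from 0.00136 and 0.00103, and without WT replicate 1 it was 0.0607 for Nkd1.

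Among MAP kinases and their phosphatases 2 of 30 tested were lower and 1 higher. Mos was at 196, 204, 163 and 201 RPM in the cKO and 551, 406 and 500.2 RPM in the WT (log2 fold change -1.34, SE 0.20, limma adjusted p = 0.00581, and past the threshold in all 20 alternatives). The oocyte transcript called Mos begins 2371 bases from the gene and shares 0.101 of the joint span with it. Mapk3, the ERK1 kinase downstream of MOS, had means of 71.3 ± 13.4 RPM (SD, n = 4) and 171 ± 58.3 RPM (SD, n = 3; log2 fold change -1.21, limma adjusted p = 0.0253). Its call was lost in 4 of the 7 fits without 1 library, with an adjusted p of up to 0.116 without WT replicate 1. Dusp4, a phosphatase of MAP kinases, was higher, with means of 1.30 RPM in the cKO and 0.0771 RPM in the WT (log2 fold change 1.08, limma adjusted p = 0.0481).

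In the interleukin-1 list 1 of 10 tested was lower and 1 higher. Il1f9, a cytokine of that family, was at 1.09, 4.04, 5.57 and 1.17 RPM in the cKO and 19.2, 34.6 and 8.89 RPM in the WT (log2 fold change -2.46, SE 0.52, limma adjusted p = 0.0207). Its call was lost without cKO replicate 1, WT replicate 1 or WT replicate 2, with adjusted p of 0.0586, 0.0779 and 0.107. Irak1, a kinase below the interleukin-1 receptor, was at 195, 123.3, 109 and 201 RPM in the cKO and 45.8, 52.3 and 45.8 RPM in the WT (log2 fold change 1.64, SE 0.26, limma adjusted p = 0.00645, and past the threshold in all 20 alternatives). The remaining higher genes were Tgif2 of the TGF-beta list, the tetraspanins Tspan5 and Tspan15, the serpins Serpinb6a and Serpinb8, and the tRNA synthetase gene Yars, with log2 fold changes of 1.08 to 1.66. Each of these 6 and Dusp4 lost its call in at least 4 fits without 1 library. Over the alternatives the log2 fold change ran from 0.29 to 4.34 for Yars and from 0.46 to 2.23 for Tspan15. The size of these 2 changes thus depends on the setting.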

How the data were processed

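RNA-seq libraries of 7 single GV oocytes were analysed, grouped as the labels give them. The authors made cDNA with a SMARTer Ultra Low kit, trimmed and mapped reads to GRCm38 with Hisat, removed reads of low mapping quality and counted them in SeqMonk over oocyte transcripts with merged isoforms. The submitters' processing notes also name bcl2fastq 1.8.4 and featureCounts 1.4.4. The deposited values are log2 RPM per mapped reads of a library, with 0.9 read in place of 0. All values above that floor came out as whole reads (tolerance 0.01), which gave the depths. Amplified reads of an oocyte are not separate molecules, so these depths describe counting error only.

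The 31 genes and the lists were chosen with earlier results of these data known. Of the rows of a gene the 1 with the highest mean was kept. Transcripts that reached 1 RPM in 3 or more libraries were tested as log2(RPM + 1), where 0 reads were 0 RPM, with lmFit and eBayes with trend in limma 3.58.1 (R 4.3.3), two-sided and without covariates. Fold changes on this scale understate those of low genes. The fit was also run on simulated data, with outcomes not given here. Values in every library are given for the 15 genes with the widest gap between genotypes, the 10 with the highest WT mean, the 3 just inside and 3 just outside the threshold and up to 3 of each function group. Of the other lists the genes past the threshold are named. Neighbours, overlapping transcripts and relatives were chosen for naming after their values were seen. Spans came from GENCODE M21, promoters from RefSeq GRCm38.p6, and motif matches may overlap. Python 3.11.15 with pandas 2.3.3 and numpy 2.4.6 was used. The alternatives were pseudocounts of 0.1 and 5 RPM, the deposited log2 values, other filters and scalings, other limma settings, voom on the recovered reads, a replicate block, each library left out, and other limits of the rule. The same number of oocytes was collected for both genotypes, and per the study's methods the preparation of 1 WT library did not succeed. Of the 31 genes 2 are counted but, with results that need them, are not reported here.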

Additional observations from a re-analysis of the deposited data

How the results depend on the processing

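The count of 31 genes rests on the limits of the rule. It was 20 at 16 RPM, 38 at 4 RPM, 3 with a gap over 3-fold, 498 with no overlap alone, 7 on the other strand, 50 after centring on the median gene, 38 after quantile normalisation and 27 when scaled to reads within transcripts. With 1 library left out it was 35 to 76, the highest without WT replicate 3 and 48 without WT replicate 2, always including the 31, which leaving out a library cannot remove. Quantile normalisation lost Rnf141. Centring moved the median log2 difference of all tested from 0.12 to -0.03. Lower calls (355) were 554 with library quality weights and 109 to 437 with 1 library left out, with 221 and 232 without cKO replicates 1 and 3 and 134 and 109 without WT replicates 1 and 2. Higher calls (683) were 315 at a pseudocount of 5 RPM, 396 without a filter, 428 after quantile normalisation, 1197 with quality weights, 443 with voom and 171 to 850 with 1 library left out. Those without cKO replicates 1 and 3 were 392 and 328, and without WT replicates 1 and 2 238 and 171. The fixed lists had 8 lower genes, in place of 5, after centring and with quality weights, and 2 to 6 with 1 library left out. They had 3 higher genes, in place of 8, at a pseudocount of 5 RPM, after centring and after quantile normalisation, 5 without a filter, at a mean of at least 4 RPM and with voom, and 1 to 9 with 1 library left out. Fewer samples or tests apart, the cause was not tested. Calls among the 31 genes, which the choice of genes largely fixes, were 22 to 31 with 1 library left out and 29 at a pseudocount of 5 RPM. The median promoter CpG ratio was 0.649 for genes of a single promoter. The fold changes of the 31 genes and of 16 others, the list genes and relatives past the threshold, were recomputed under the alternatives and none changed sign, which their selection on the same values largely fixes. The other named values were not recomputed.

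Replicate numbers were shared by the genotypes, but same-numbered oocytes did not deviate together (correlations of 0.192, 0.295 and -0.129, against 0.608 for cKO replicate 4 with WT replicate 3), so the numbers were not read as pairs. With a replicate block there were 479 lower and 924 higher calls, and 6 lower and 8 higher genes in the fixed lists, while Dusp4 (adjusted p = 0.0530) and Yars (0.0546) lost their calls in limma. With 3 to 4 oocytes a group, a level under 0.231 to 0.350 RPM (3 reads) cannot be told from 0.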

Other observations

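Of the 3 neighbours past the threshold and higher, 2 are given here. The transcript named 1700029F12Rik, 70837 bases from Gcnt4, had means of 16.8 RPM in the cKO and 4.15 RPM in the WT (log2 fold change 1.75, SE 0.30, limma adjusted p = 0.00935). A transcript without a gene name, 23642 bases from Slc26a9, was also past the threshold (log2 fold change 1.16, SE 0.30, limma adjusted p = 0.0465). Of 47 values of single genes and groups examined in the 4 cKO libraries, none had 1 library apart from the rest by Dixon's test at the 95% level, where chance gives about 2.4 for values not selected. Genes picked by the rule or by a call were selected on these same cKO values, which disfavours 1 high library. The count therefore cannot show that the cKO oocytes agree.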
